A study of Mus musculus with 6 samples.

Results

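Committed and newly formed oligodendrocytes were examined by single-cell RNA sequencing of the mouse brain. They were chosen by the UMIs (unique molecular identifiers, which count RNA molecules) of named genes in each barcode. A barcode was taken as such a cell when it had 250 to 6000 genes and less than 25% mitochondrial UMIs, a UMI of *Sox10* or *Olig1*, and UMIs of at least 2 of the 4 markers *Gpr17*, *Bmp4*, *Enpp6* and *Neu4*. It also had to lack any *Pdgfra* UMI and to carry at most 1 of 5 genes of other cell types (*P2ry12*, *Cx3cr1*, *Cldn5*, *Flt1* and *Aqp4*). In all, 188 barcodes met these criteria, of 27530 that passed the limits on genes and mitochondrial UMIs and 33273 deposited, and they are called committed cells here. The libraries came from 2 preparations of wild-type female C57Bl/6J mice, the cortex of mice aged 3 weeks and the hippocampus of mice aged 5 weeks. Cells of 3 mice went into a single pool in each preparation, and the 3 libraries made from a pool are technical replicates. A group is thus 1 biological sample and no test was possible. Region, age and preparation cannot be told apart. White matter was scraped off both tissues and myelin was removed with 20% Percoll, so the numbers of oligodendrocytes recovered may not be those of the tissue.

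Oligodendrocytes arise from precursor cells that divide and carry the growth factor receptor PDGFRα. A precursor that commits leaves the cell cycle, switches off the receptor, and passes through a short-lived stage at which it sends out many branched processes before some of them wrap axons. At this stage the cell expresses the receptor GPR17, which holds back maturation, the secreted signal BMP4, the choline phosphodiesterase ENPP6 and the sialidase NEU4, and then turns on the proteins and lipids of myelin.

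Of the committed cells, 33 came from the cortex (9, 10 and 14 per replicate) and 155 from the hippocampus (51, 51 and 53). No barcode was shared between libraries among them, and 3 of the hippocampal cells and none of the cortical ones were called doublets. They were deeply covered, with a median of 15028 UMIs and 4192 genes in the cortex and 23623 UMIs and 5096 genes in the hippocampus, in libraries of 39662203 to 50024850 UMIs. They were compared with 83 precursors (a *Pdgfra* and an *Olig1* UMI, 7 cortical and 76 hippocampal), at medians of 7688 and 9587 UMIs. The other neighbours were 979 mature oligodendrocytes (at least 5 of the 7 genes *Mog*, *Mag*, *Mobp*, *Opalin*, *Ermn*, *Mal* and *Aspa*, 23 cortical and 956 hippocampal), at medians of 30861 and 20775.5 UMIs. The 3 classes were cut on UMIs of these genes, so the levels of those genes describe the rule and are not results.

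Of the 4 markers, *Enpp6* was carried by 33 cortical and 147 hippocampal committed cells, *Gpr17* by 32 and 150, *Bmp4* by 26 and 108, and *Neu4* by 27 and 106. All 4 markers were found in 117 cells, exactly 3 in 19 and exactly 2 in 52. The cells just inside the threshold, with exactly 2 markers, held *Mog* at 2124 CPM (a gene's UMIs per 1000000 UMIs summed over the cells) and *Fyn* at 631 CPM. The 471 barcodes just outside it, with 1 marker, held *Mog* at 2855 CPM and *Fyn* at 55.4 CPM. Cells with all 4 markers had *Mog* at 219 CPM and *Fyn* at 3294 CPM. *Mog* is one of the 7 mature genes, so its levels describe the classes. *Fyn*, which the rule did not use, was highest in the cells with all 4 markers. Of the 188 cells, 34, 2 cortical and 32 hippocampal, also carried at least 5 of the 7 mature genes and met the criterion for mature cells apart from their markers. They are called near-mature cells here. A further 71 barcodes had at least 2 markers but a *Pdgfra* UMI, and 19 had at least 2 markers but more than 1 gene of another cell type. Of the 83 precursors, 70 (5 cortical and 65 hippocampal) carried at least 2 of the 4 markers. These 70 met the rule for committed cells apart from their *Pdgfra* UMI, so the comparison with precursors rests largely on that gene.

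The markers were present in every library. *Enpp6* stood at 1181, 1351 and 1347 CPM in the committed cells of the 3 cortical replicates and at 1025, 921 and 905 CPM in those of the 3 hippocampal replicates. *Gpr17* was at 894, 1393 and 1611 CPM and at 1069, 962 and 787 CPM, and the preparations overlapped. *Bmp4* was at 762, 921 and 905 CPM and at 760, 852 and 534 CPM, also with overlap. Not all 4 markers set these cells apart from precursors. In hippocampal precursors *Gpr17* was at 812 CPM and *Neu4* at 392 CPM, against 933 and 307 CPM in hippocampal committed cells. Neither gene differed 2-fold in either preparation. *Bmp4* and *Enpp6* were at 265 and 155 CPM in hippocampal precursors, against 713 and 947 CPM. Per gene these markers lie, on mouse genome build GRCm38, at chr8:46986887-47096762 (*Enpp6*, plus strand), chr18:31942997-31949636 (*Gpr17*, minus strand), chr14:46383520-46390669 (*Bmp4*, minus strand) and chr1:94020451-94028334 (*Neu4*, plus strand), and all are protein-coding. To set the share of cells with a UMI against free RNA, each cell was thinned to 2000 UMIs. *Bcas1*, a gene of the same stage that the rule did not use, was then found in 93.5% of cortical and 85.5% of hippocampal committed cells, against 100% and 99.4% before thinning. In microglial barcodes, thinned alike from medians of 5494 and 6610.5 UMIs, it was found in 0.0711% in the cortex and in 0.722% in the hippocampus. *Bcas1* was not confined to committed cells within the lineage. After thinning it was found in 28.6% of cortical and 50.0% of hippocampal precursors, and in 42.9% and 41.3% of mature cells. Thinning left out 2 cortical and 3 hippocampal committed cells and 88 and 60 microglial barcodes, which were shallower. It also left out 4 hippocampal precursors and 2 cortical and 15 hippocampal mature cells.

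Committed cells made up a larger share of the oligodendrocyte lineage in the cortex of young mice than in the hippocampus. In the cortex they were 42.9%, 50.0% and 63.6% of the lineage barcodes (precursors, committed and mature cells together) of the 3 replicates, 52.4% in all (95% Clopper-Pearson interval 39.4 to 65.1%, SD over technical replicates 10.6). In the hippocampus they were 12.8%, 13.0% and 13.4%, 13.1% in all (11.2 to 15.1%, SD 0.261). The libraries did not overlap, but the cortical share rests on 63 lineage barcodes and the hippocampal one on 1187. Of all barcodes that passed the filters the order was the opposite, with 0.248% (SD 0.0621) in the cortex and 1.09% (SD 0.0579) in the hippocampus. These intervals cover counting error and the SDs technical error, and neither covers the spread between mice.

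**Figure D1:**
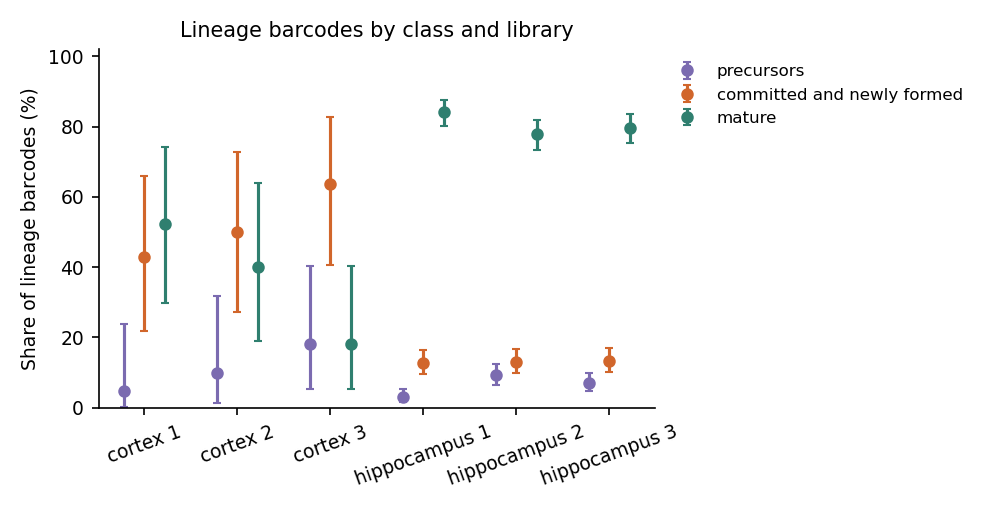
Share of lineage barcodes, in percent, that were precursors, committed cells or mature cells in each of the 6 libraries, with bars for the 95% Clopper-Pearson intervals. Committed cells took 42.9 to 63.6% in the 3 cortical libraries and 12.8 to 13.4% in the 3 hippocampal ones, where mature cells took 77.9 to 84.1%.

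Beside precursors, committed cells had more of other genes of their own stage and of part of the myelin genes, and less of the precursor genes. Levels were CPM of UMIs summed over the cells of a class, differences were log2 ratios with 5 CPM added to both sides, and a gene was called when the ratio was at least 2-fold in the same direction in both preparations. A gene was measured when it had at least 30 UMIs in each preparation, counted over both classes together. Of 3352 such genes, 252 (7.52%) were higher in committed cells and 127 (3.79%) were lower. The excess of higher genes depended on the gene minimum, with 364 higher and 435 lower at 10 UMIs and 442 and 1232 at 1 UMI, and hippocampal libraries alone gave 734 and 1523. The cortical ratios are weak, since 1 of the 7 cortical precursors, in replicate 1, held 28.2% of that class's UMIs and carried 35 *Enpp6* UMIs and 1 *Pdgfra* UMI. Another, in replicate 3, held 381 UMIs of mural genes, which was 100% of the mural UMIs of that class. Hippocampal ratios are therefore given first. The counts were 161 higher and 47 lower without cortical replicate 3, and 72 lower without cortical replicate 2. Of the 252 higher genes, 45 had no UMI in the precursors of a preparation, and for 18 of these the limit that a count of 0 allows does not show a 2-fold difference.

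The label was set beside a list of genes of the same stage that the rule did not use. The list was chosen with earlier results of these data known, and the classes were cut on markers of that stage. It therefore describes the cells and does not test the label. Of 22 genes of the list that were measured, 11 were higher than in precursors and none lower. Their hippocampal median log2 ratio was 1.94, against 0.00 for all genes measured. Of these calls 9 were kept without the 34 near-mature cells. *Ddc* and *Gpr37* were then left with 27 and 25 cortical UMIs, under the 30 needed, while their hippocampal ratios were 3.67 (3.55 with these cells) and 1.17 (3.92). Among the list genes and leading genes, 29 calls against precursors were lost or changed sign without these cells, 15 of them in genes left with under 30 UMIs in a preparation. *Fyn*, a kinase that drives morphological maturation, was at 1845, 2823 and 2059 CPM in the committed cells of the cortex and at 2393, 2419 and 2059 CPM in those of the hippocampus. Hippocampal precursors had 294, 670 and 1343 CPM, below every committed library, and the log2 ratio was 1.36 (95% counting interval 1.25 to 1.48). The intervals of ratios, here and below, cover counting error of the summed UMIs. They do not cover the spread between cells, libraries or mice. In hippocampal replicate 3 *Fyn* differed by less than 2-fold, at 2059 against 1343 CPM. *Sirt2*, a tubulin deacetylase of oligodendrocytes, was at 3738, 3737 and 3454 CPM and at 4497, 4834 and 4215 CPM, against 357, 984 and 1343 CPM in hippocampal precursors, a ratio of 2.10 (2.00 to 2.21). *Bcas1*, which marks oligodendrocytes that begin to myelinate, was at 1167, 1944 and 2118 CPM and at 1813, 1911 and 1622 CPM. It was not called, since the cortical precursor of replicate 1 had 3306 CPM, but every hippocampal precursor library, at 179, 539 and 1206 CPM, was below every hippocampal committed one.

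*Tcf7l2*, a transcription factor needed for differentiation and a partner of β-catenin, showed how far that 1 precursor reached. Committed cells had 1062, 909 and 528 CPM in the cortex and 1136, 970 and 1073 CPM in the hippocampus. Cortical precursors had 2594, 67.4 and 56.6 CPM and hippocampal ones 126, 247 and 175 CPM. The log2 ratio was 2.34 (2.14 to 2.60) in the hippocampus but 0.07 (−0.35 to 0.50) in the cortex. Every precursor library other than cortical replicate 1 was below all committed ones.

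**Figure D2:**
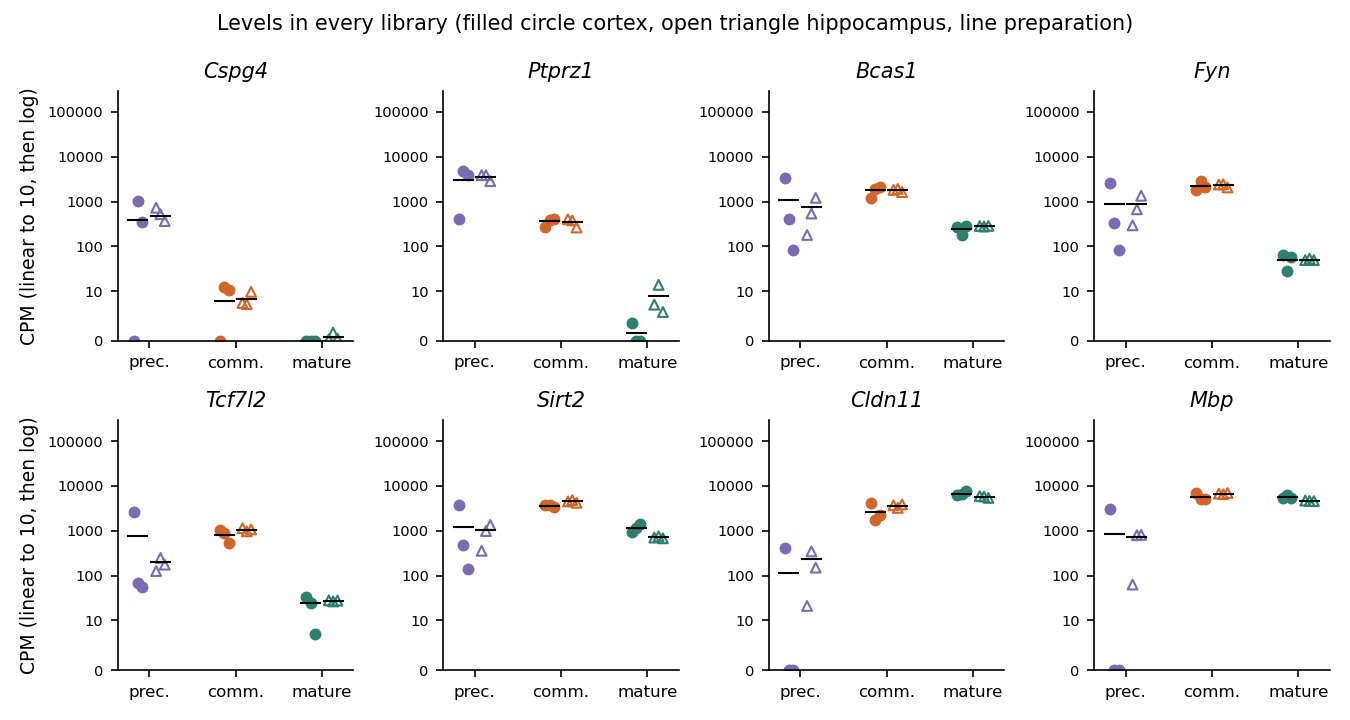
Levels of 8 genes in CPM (scale linear to 10 and logarithmic above) in precursors, committed cells and mature cells, 1 point per library (filled circles cortex, open triangles hippocampus) and lines for each preparation. In the hippocampus *Fyn* and *Sirt2* were highest in committed cells, *Cspg4* and *Ptprz1* in precursors and *Cldn11* in mature cells.

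Of 20 precursor genes measured, 16 were lower in committed cells and none higher, with a hippocampal median of −2.54, and 14 of these calls were kept without the near-mature cells. *Cspg4* encodes the NG2 proteoglycan that marks precursors. It was at 0, 12.1 and 10.8 CPM in cortical and 7.62, 7.39 and 9.86 CPM in hippocampal committed cells, against 725, 521 and 366 CPM in hippocampal precursors (log2 ratio −5.20). *Ptprz1*, a receptor phosphatase, was at 266, 382 and 410 CPM and at 401, 378 and 263 CPM, against 3875, 3869 and 2843 CPM (log2 ratio −3.31, −3.43 to −3.23). It fell less than *Cspg4* and was still detected in each library. *Tnr*, which encodes the matrix protein tenascin-R, was not lower, with 1048, 1629 and 1218 CPM and 1294, 1260 and 1065 CPM and a hippocampal log2 ratio of 0.18 (0.07 to 0.29).

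The genes that fell furthest included *Cspg5* (hippocampal log2 ratio −6.99), a neural proteoglycan, *Ccnd1* (−6.48), the cyclin that takes cells into the cycle, and *Hes5* (−5.42), a target of Notch signalling. Of 5 genes of cell cycle exit measured, *Ccnd1* was the 1 that was lower and *Gadd45a*, which is induced on growth arrest, the 1 that was higher (1.42). Of 24 genes of the dividing cell, 2 had enough UMIs in both preparations and neither was called. Their summed level was 209 CPM in cortical and 190 CPM in hippocampal committed cells, against 2098 CPM in hippocampal precursors but 229 CPM in cortical ones.

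Among 20 lineage transcription factors measured, 3 were higher and 5 lower. *Myrf*, the factor that turns on myelin genes, was higher (2.28), as was *Nkx6-2* (4.29), a homeobox factor of myelinating cells. *Olig2*, which sets the lineage, was lower (−1.20, but −0.98 and not called without the 34 near-mature cells), as were *Sox5* (−2.36) and *Nfia* (−1.79), which belong to the precursor stage. *Hes5* and *Olig1* were the others that were lower, and *Olig1* was used to choose the cells.

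Of 28 myelin and mature oligodendrocyte genes measured 27 were above precursors and none below, with a hippocampal median of 4.08, but the 7 mature genes that set the classes are on this list. Of the 21 others 20 were above precursors, with a hippocampal median of 3.52. Of these calls 8 were kept without the 34 committed cells that carried at least 5 mature genes, and 5 of the other 12 genes were left with too few UMIs. *Cryab* and *Trf* were then no longer called, with cortical ratios of 0.44 and 0.30 and hippocampal ones of 1.74 and 2.81, and *Car2* (hippocampal −1.07, with too few UMIs) and *Gsn* (−0.53) changed sign. *Cldn11* and *Mbp* were among the genes kept. *Cldn11*, a claudin that forms the tight junctions of myelin, was at 4150, 1769 and 2285 CPM in the cortical and 3693, 3239 and 3876 CPM in the hippocampal replicates, against 21, 347 and 150 CPM in hippocampal precursors, a log2 ratio of 3.93 (3.75 to 4.17). *Mbp*, whose protein compacts the membrane layers, was at 6847, 5185 and 5082 CPM and at 6743, 6534 and 6958 CPM, a ratio of 3.23 (3.12 to 3.36). For both genes the committed libraries were all above the hippocampal precursor libraries.

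Of the lipid lists, 6 of 13 genes of galactolipid and fatty acid synthesis were higher and none lower. *Ugt8a*, which makes galactosylceramide, rose by a log2 ratio of 2.30, *Fa2h*, which hydroxylates its fatty acid, by 2.14 and *Gal3st1*, which turns it into sulfatide, by 1.28. Of 20 cholesterol genes 4 were higher and none lower, with a hippocampal median of 0.94, and *Fdps* (1.03), *Cyp51* (1.25) and *Hsd17b7* (1.34) were among them. Without the near-mature cells 5 of the 6 galactolipid calls were kept, and *Fdps* (in the hippocampus) and *Cyp51* (in the cortex) were just under the threshold.

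Beside mature cells, committed cells had more of the other genes of their stage and of the precursor genes, and less of the myelin genes. Of 5096 genes measured, 548 (10.8%) were higher in committed cells and 322 (6.32%) lower. Of 23 other genes of the committed stage, 21 were higher and 1, *Gpr37*, lower (−1.94), with a hippocampal median of 3.57 against 0.23 for all genes. *Fyn* was at 49.3, 52.9 and 49.3 CPM in hippocampal mature cells (log2 ratio 5.37), *Tcf7l2* at 28.0, 26.5 and 27.6 CPM (5.03) and *Sirt2* at 703, 751 and 679 CPM (2.66), each below every committed library. Of 16 precursor genes, 15 were also higher than in mature cells and none lower, so that precursor genes were mostly lower than in precursors and mostly higher than in mature cells. *Tnr*, which was not lower than in precursors, was at 0.857, 0.303 and 0.61 CPM in hippocampal mature cells and 0 of 664207 UMIs in cortical ones, which allows up to 4.52 CPM.

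In the other direction 25 of 34 myelin and mature genes were lower than in mature cells and none higher, with a hippocampal median of −1.80. Of the 27 outside the 7 mature genes 19 were lower, with a median of −1.87, and all 19 were also called without the near-mature cells. *Cryab* (−1.39) and *Trf* (−2.36), which encodes transferrin, were among them. *Mbp* was not, with a hippocampal ratio of 0.54 and a cortical one of −0.01. The genes furthest below mature cells included *Glul* (−3.07), which encodes glutamine synthetase, *Hcn2* (−3.03), a cation channel, *Ndrg1* (−2.74) and *Car2* (−2.73), a carbonic anhydrase of mature oligodendrocytes. Of 17 galactolipid genes 1, *Acaca*, was lower (−1.08) and none higher, and of 20 cholesterol genes 1 was higher and none lower.

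The 36 myelin and mature genes summed to 4938 CPM in hippocampal precursors, 66598 CPM in committed and 140747 CPM in mature cells, and the counts of called genes depended on the scaling. TMM scaling uses a trimmed mean of gene ratios. With it the median log2 ratio of all genes against precursors moved by 0.49 in the cortex and 0.42 in the hippocampus. It thus came to 0.57 and 0.42, further from 0 than with UMI totals (0.08 and 0.00). Against mature cells it moved by −0.31 and −0.34, to 0.00 and −0.11. The counts then became 466 higher and 77 lower against precursors, and 378 higher and 507 lower against mature cells.

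A set of 59 of 3310 genes (1.78%) was at least 2-fold above both neighbours in both preparations, and 2 genes (0.0604%) were below both. Of the 59, 6 had no UMI in cortical precursors. Against the 43.0 CPM that this count allows, *Chst8* (1.56-fold), *Dct* (1.98-fold) and *Matn1* (1.93-fold) were not shown to be 2-fold higher in the cortex, which leaves 56 genes. The 12 that led this set, among genes with a UMI in at least 20% of committed cells, were as follows. *Frmd4a*, a scaffold protein with a FERM domain, was at 845, 1145 and 453 CPM in cortical and 1102, 1059 and 1100 CPM in hippocampal committed cells, with hippocampal log2 ratios of 2.78 to precursors and 5.02 to mature cells. *Rras2*, a small GTPase of the Ras family, was at 328, 84.8 and 10.8 CPM and at 201, 128 and 134 CPM (3.07 and 4.24). Cortical replicate 1 held most of its cortical UMIs, and the cortical range took in the hippocampal one. *Epcam*, an adhesion molecule known from epithelia, was at 55.9, 164 and 194 CPM and at 107, 118 and 106 CPM (1.78 and 4.51), and *Dct*, a tautomerase known from melanin synthesis, at 83.8, 145 and 32.3 CPM and at 60.9, 64.0 and 49.3 CPM (2.20 and 3.50). Both were found in every library of committed cells. The others were *Bfsp2* (2.74 and 2.83), *Pik3r3* (2.41 and 3.87), *Cnksr3* (2.71 and 4.31), *Dynll2* (2.00 and 3.64), *Chst8* (1.79 and 1.95), *Map1b* (2.26 and 3.46), *Tns3* (1.67 and 3.31) and *Sirt2*.

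**Figure D3:**
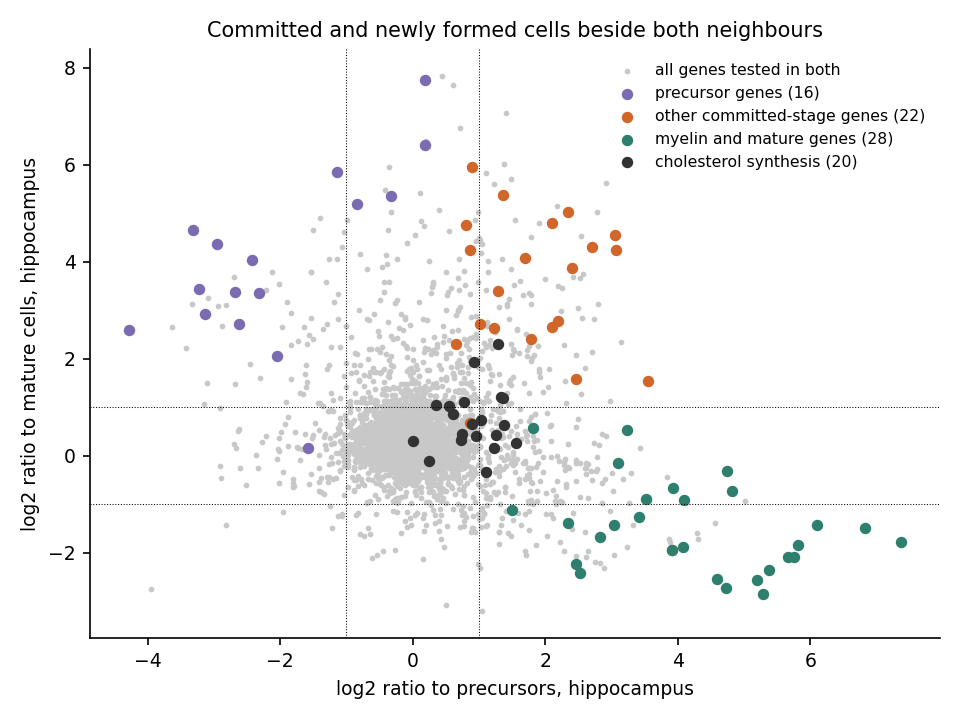
Log2 ratio of committed cells to precursors (horizontal axis) and to mature cells (vertical axis) in the hippocampus, 1 point per gene, with dotted lines at 1 and −1. Myelin genes lie to the right and mostly below 0, precursor genes to the left and mostly above 0, and other genes of the committed stage in the upper right.

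Genes of process growth and of contact with axons were divided between the directions. Of 21 cytoskeleton genes 9 were above and 3 below precursors, and of 22 genes 9 were above and 4 below mature cells. Without the near-mature cells 9 of the 12 calls against precursors were kept. *Tppp3*, *Stmn1* and *Fnbp1* were then left with 3, 5 and 10 cortical UMIs, too few for a call, and the hippocampal ratios of *Stmn1* and *Fnbp1* went from 1.01 to −3.41 and from 2.89 to −0.24. *Tuba1a*, an α-tubulin of growing cells, was above both (1.52 and 2.21), as was *Map1b*, a microtubule protein of outgrowth. *Marcks*, which ties actin to the membrane, had a hippocampal log2 ratio of 0.44 to precursors but of 7.83 to mature cells. Of 19 adhesion genes 4 were above and 3 below precursors, and of 24 genes 10 were above and 4 below mature cells. *Nfasc*, the neurofascin of axoglial contacts, was at 2117, 1835 and 911 CPM and at 2307, 1992 and 2131 CPM and was above both (3.14 and 2.35). *Nrxn2*, a synaptic adhesion molecule, was below precursors (−2.90) and *Cntn2*, a contactin of the myelinated axon, below mature cells (−2.45).

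Few genes of the signalling lists had enough UMIs. Their counts stand beside 11.3% of all genes called against precursors and 17.1% against mature cells. Of 6 BMP pathway genes *Bmp4*, which chose the cells, and the inhibitor *Smad7* (2.78) were above precursors, and of 9 genes *Bmp4* and the target *Id1* (1.48) were above mature cells. For Wnt, *Lrp6*, a coreceptor, was below precursors (−1.05) of 6 genes, though not without the near-mature cells (−0.88, with 29 cortical UMIs left). Of 8 Wnt genes, *Tcf7l2* and the receptor *Fzd3* (1.08) were above and *Nkd1* (−1.51) and *Daam2* (−2.06) below mature cells. Of 3 Notch genes *Hes5* and the ligand *Cntn1* (−1.61) were below precursors, and neither of 2 was called against mature cells. Of 7 genes of channels and receptors *Kcna1*, a potassium channel, was above precursors (2.23) and the glutamate receptor gene *Gria3* (−2.32) and its auxiliary subunit *Cacng4* (−4.28) below. Without the near-mature cells the hippocampal ratio of *Gria3* was −1.91, but the cortical one went from −1.06 to −0.86, under 2-fold. Against mature cells 3 of 8 were above and 2 below, and *Gria2*, the most abundant of these, was above (4.86).

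Of 5 apoptosis genes the transcription factor *Tfeb* was above precursors (1.73). Without the near-mature cells its ratio was 1.76, but 27 cortical UMIs were left, too few for a call. Of 7 genes 3 were above mature cells, among them *Bak1* (1.60) and *Bax* (1.01), which promote cell death, and the protective *Bcl2l1* (−1.38) was below. Genes of the response to tissue dissociation were called for none of 3 against precursors and were lower than in mature cells for *Hsp90aa1* (−1.28) and *Jund* (−1.48) of 5. Their summed level was 1371 CPM in cortical and 1389 CPM in hippocampal committed cells, against 2449 and 2300 CPM in precursors and 2525 and 3034 CPM in mature cells.

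For the place of committed cells between their neighbours, 368 genes outside the rule were used that differed at least 4-fold between precursors and mature cells in both preparations. Committed cells lay between the neighbours for 90.8% of these genes in the cortex and 89.1% in the hippocampus, with a median position of 0.50 and 0.55 on a scale from 0 (precursors) to 1 (mature cells). The share was 96.0% and 96.3% for the 272 genes higher in mature cells, and 76.0% and 68.8% for the 96 higher in precursors. It was lower for all genes together, at 78.0% and 66.6%, without the 34 committed cells that carried at least 5 mature genes, and 73.4% and 73.1% for cells with at least 3 markers.

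The committed cells differed widely among themselves. Hippocampal cells fell into 21 with none of the 7 mature genes, 63 with 1 or 2, 39 with 3 or 4 and 32 with 5 to 7, of which 28 had all 7 and 4 had 5 or 6. Few cells thus lay between those with up to 4 and those with all 7. In the cortex the numbers were 8, 20, 3 and 2. The bins are ranges of a count, not types, and their depth differed, with hippocampal medians of 9320, 21748, 27651 and 27668 UMIs. What the 4 markers and the 7 mature genes do across them is partly fixed by the rule, whereas other genes were not used. Values below are for the hippocampus and its 3 replicates.

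*Enpp6* and *Gpr17* were both used by the rule, so their levels across the bins are a description. *Gpr17* was at 3552, 1835 and 2580 CPM in cells with no mature gene, 1548, 1445 and 1376 CPM with 1 or 2, and 716, 633 and 714 CPM with 3 or 4. *Enpp6* was at 283, 468 and 419 CPM, then 1126, 1142 and 1356 CPM, then 1419, 1415 and 1410 CPM. Cells with no mature gene were thus high in *Gpr17* and low in *Enpp6*. *Bmp4* was at 1394 CPM in the first bin, 1270 CPM in the second and 485 CPM in the third. After thinning to 2000 UMIs a cell held on average 5.0, 2.94 and 1.38 *Gpr17* UMIs and 0.611, 2.14 and 3.08 *Enpp6* UMIs in these bins, in the same order.

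*Tcf7l2* was not used by the rule. It was at 265, 225 and 309 CPM with no mature gene, 1179, 1066 and 1422 CPM with 1 or 2, 1799, 1736 and 1938 CPM with 3 or 4, and 201, 220 and 109 CPM with 5 to 7. The first and last bins were close to precursors (205 CPM), and the replicates of the third bin were above those of all others. *Rras2* (9.36, 50.5, 296 and 171 CPM over the 4 bins), *Ddc* (4.68, 84.4, 274 and 104 CPM), which encodes a decarboxylase of monoamine synthesis, and *Gadd45a* (9.36, 107, 153 and 6.51 CPM) also had their highest pooled levels in the third bin. *Marcks* was at 2011, 2761, 4630 and 999 CPM, and *Sirt2* at 2905, 5387, 6011 and 1978 CPM.

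*Fyn* was lower in the cells with more mature genes, at 3779, 3550 and 3440 CPM with no mature gene, 3295, 3301 and 3580 CPM with 1 or 2, 2412, 2622 and 2457 CPM with 3 or 4, and 349, 112 and 114 CPM with 5 to 7. The replicates of the first 2 bins overlapped, and in the cortex *Fyn* was at 2585 CPM in the first and 2971 CPM in the second. *Bcas1* had 2713, 2607, 1894 and 247 CPM over the bins and *Tnr* 1735, 1745, 1420 and 54.2 CPM. Precursor genes were lower than in precursors already in cells with no mature gene, with a summed level of 8939 CPM against 19717 CPM. *C1ql1*, a secreted C1q-like protein of precursors, was at 819 CPM in precursors, at 718, 329 and 728 CPM in this bin and at 175, 168 and 113 CPM in the next. *Ptprz1* fell from 3470 CPM in precursors to 1235, 533 and 226 CPM, and no UMI was left in the bin of 5 to 7.

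Myelin genes outside the 7 mature ones had a summed level of 4800 CPM in precursors, 10913, 32583, 46945 and 114656 CPM over the bins and 115129 CPM in mature cells. *Cldn11* was at 113, 615 and 88.2 CPM in the first bin, 1702, 1239 and 1730 CPM in the second, 4108, 3772 and 3258 CPM in the third and 7593, 7350 and 6864 CPM in the last. The bins did not overlap over replicates. *Mbp* was highest in the third bin (992, 5427, 9736 and 6659 CPM), above mature cells (4641 CPM). *Car2* was nearly absent in the first 3 bins (0, 3.01 and 5.87 CPM) and at 1837 CPM in the last, beside 3261 CPM in mature cells, and *Stmn1*, which destabilises microtubules, did likewise (32.7, 15.1, 16.6 and 1722 CPM, then 2335 CPM in mature cells).

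The summed level of the 20 cholesterol genes was 2153 CPM in precursors, 2779, 3549, 6469 and 4971 CPM over the bins and 3068 CPM in mature cells. *Hmgcs1*, which makes HMG-CoA, was at 302, 727 and 441 CPM, 696, 618 and 475 CPM, 1497, 1365 and 1204 CPM, and 1039, 1123 and 1391 CPM. The replicates of the third bin were above those of the first 2 but overlapped those of the last. The summed level of galactolipid genes was 3027, 3898, 5800 and 7984 CPM over the bins, highest in the last and close to mature cells (7561 CPM). Genes of the dissociation response moved with the bins too, at 1240, 978, 979 and 2471 CPM, and their part in the other changes was not tested.

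**Figure D4:**
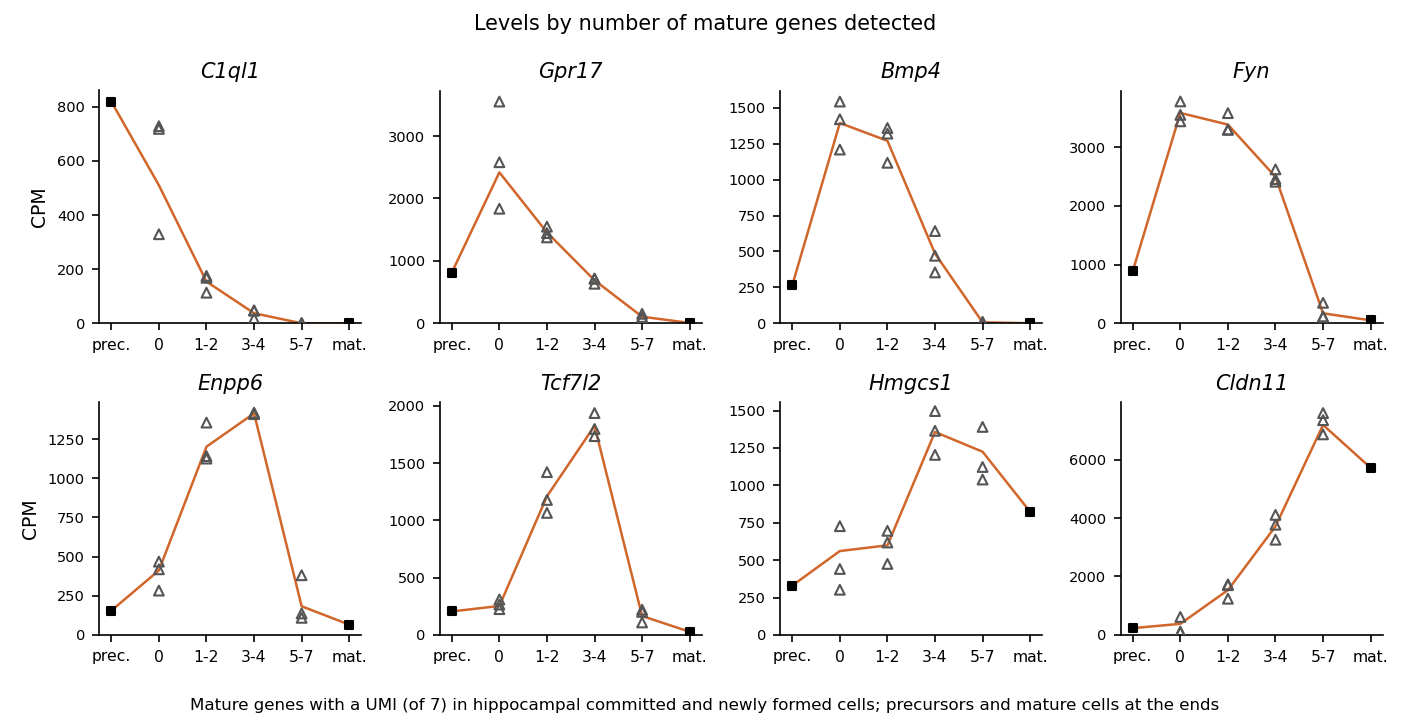
Levels of 8 genes in CPM in hippocampal precursors, committed cells with 0, 1 to 2, 3 to 4 and 5 to 7 of the 7 mature genes, and mature cells (triangles are libraries, the line is all cells of a bin). *Gpr17* and *Bmp4* fell over the bins, *Enpp6* and *Tcf7l2* were highest with 3 or 4 mature genes, *C1ql1* was highest in precursors, and *Cldn11* was highest with 5 to 7.

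The cells with 5 to 7 mature genes were for the most part cells with few marker UMIs. In the hippocampus 25 of these 32 carried *Gpr17* and *Enpp6* alone and none carried all 4 markers. The 40 hippocampal cells with *Gpr17* and *Enpp6* alone had medians of 3 *Gpr17* and 5.5 *Enpp6* UMIs, against 23 and 26 in the 93 cells with all 4. In these near-mature cells *Fyn* was at 170 CPM and *Tnr* at 54.2 CPM, above mature cells (50.4 and 0.595 CPM) but below the other committed cells. *Fyn* was led by replicate 1, at 349 CPM against 112 and 114 CPM in the others.

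Markers of other cell types were low in part because the rule allowed at most 1 of 5 of them. The 10 microglial markers summed to 70.9 CPM in cortical and 104 CPM in hippocampal committed cells, with 3 and 0 markers at 0. The 9 endothelial markers summed to 417 CPM in both, of which *Bsg*, a gene that many cells express, gave 356 and 340 CPM. The astrocyte markers summed to 233 and 210 CPM (*Mfge8* highest), the neuronal markers to 79.0 and 99.5 CPM (*Prox1* highest) and the erythroid markers to 158 and 12.6 CPM. Mural markers summed to 16.2 and 41.6 CPM, and 1 cell of hippocampal replicate 1 with 7272 UMIs held 117 of the 145 hippocampal UMIs, without which the level was 8.05 CPM. *Ttr*, made by the choroid plexus, was at 456 CPM in hippocampal committed cells, but 1186 of the 1588 UMIs came from 1 cell of replicate 3, and the level was 116 CPM without it, beside 934 CPM in hippocampal microglial barcodes. Hippocampal precursors had 243 CPM of microglial, 725 CPM of endothelial, 1649 CPM of astrocyte and 853 CPM of neuronal markers. Hippocampal mature cells had 122, 231, 232 and 217 CPM. Against precursors 2 of 3 astrocyte genes were called (hippocampal median log2 ratio −3.58), as was the 1 neuronal gene measured (−4.54). The part of RNA from other cell types in the other levels was not tested.

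Between the preparations, committed cells differed in 345 of 8806 genes (3.92%) at least 2-fold with libraries that did not overlap. Of these, 251 (2.85%) were higher in the hippocampus of mice aged 5 weeks and 94 (1.07%) in the cortex of mice aged 3 weeks. By fold alone the counts were 292 (3.32%) and 118 (1.34%). Leaving out a cortical library raised the first count to 525 (without replicate 1), 416 (without replicate 2) and 434 (without replicate 3), and the second to 150 without replicate 1. None of the 23 other genes of the committed stage was called, a count near that share of all genes, and the myelin, cytoskeleton and cholesterol lists gave 1 call each, of 34, 26 and 20 genes. Of 10 genes of the response to tissue dissociation 3 were called. The heat shock genes *Hspa1a* (2.18) and *Hspa1b* (1.86) were higher in the hippocampus, with 2 and 0 cortical UMIs, and *Fos* (−1.41), an immediate early gene, in the cortex. In mature cells the ratios were 2.20, 1.77 and −0.47. They were −1.46, −3.36 and 1.26 in precursors and −0.51, −1.08 and 0.19 in microglial barcodes, each of the opposite sign. The part of tissue handling in the other differences was not tested. The precursor, BMP, apoptosis and adhesion lists gave 2 calls each, of 23, 15, 9 and 26 genes. *Ptgds*, prostaglandin D synthase, was the myelin-list gene. It was at 727, 84.8 and 32.3 CPM in the cortex and at 1365, 1546 and 1306 CPM in the hippocampus (log2 ratio 2.46), and mature cells differed in the same direction (2.78).

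*Igsf9b*, an adhesion molecule of the immunoglobulin superfamily, differed most towards the cortex. It was at 217, 321 and 329 CPM in cortical and at 8.57, 9.85 and 9.86 CPM in hippocampal committed cells, a log2 ratio of −4.37. The groups were far apart. The ratio was −4.56 in precursors and −1.72 in mature cells, where levels were low (13.5 and 0.645 CPM), and microglial barcodes had next to none (0.15 and 0 CPM). *Cxcl12*, a chemokine, had 0 of 493776 UMIs in the cortex, which allows up to 6.08 CPM, and 40.2 CPM in the hippocampus, whereas in mature cells it was higher in the cortex (−1.58). Without the near-mature cells the difference in *Cxcl12* was no longer called (0.63), with under 30 UMIs left. *Id1* (−1.66), *Cacng4* (−1.41) and *Nrcam* (−1.04), an adhesion molecule of axoglial contacts, were higher in cortical cells. Their ratios were 0.29, 0.05 and −1.19 in precursors, and in mature cells they were 0.57, 0.03 and −0.05, at levels of at most 2.43 CPM.

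Some of the differences were also seen outside committed cells. Of the 251 genes higher in the hippocampus, 49 of 235 measured (20.9%) were at least 2-fold higher there in mature cells too, and 29 of 225 (12.9%) in microglial barcodes. Of the 94 higher in the cortex, 31 of 81 (38.3%) and 29 of 85 (34.1%) were. The other classes were counted by fold alone, whereas the 251 and 94 also needed libraries that did not overlap. The share of all measured genes that differed 2-fold in the other classes was not counted. These percentages therefore have no background to be read against. Among the named genes *Tonsl*, *Srp54c*, *Fam177a*, *Sept2* and *Hgs* were higher in the hippocampus in all 3 classes, and *Pgk1*, *Timm8a1*, *Amd2*, *Ncoa4* and *Hbb-bs* in the cortex. *Pgk1*, a glycolytic enzyme, had log2 ratios of −2.94 in committed cells, −3.21 in mature cells and −2.58 in microglial barcodes. The gene lists of the preparations differed (31053 and 27998 genes, 27514 in both), and the part of annotation in these ratios was not tested.

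**Figure D5:**
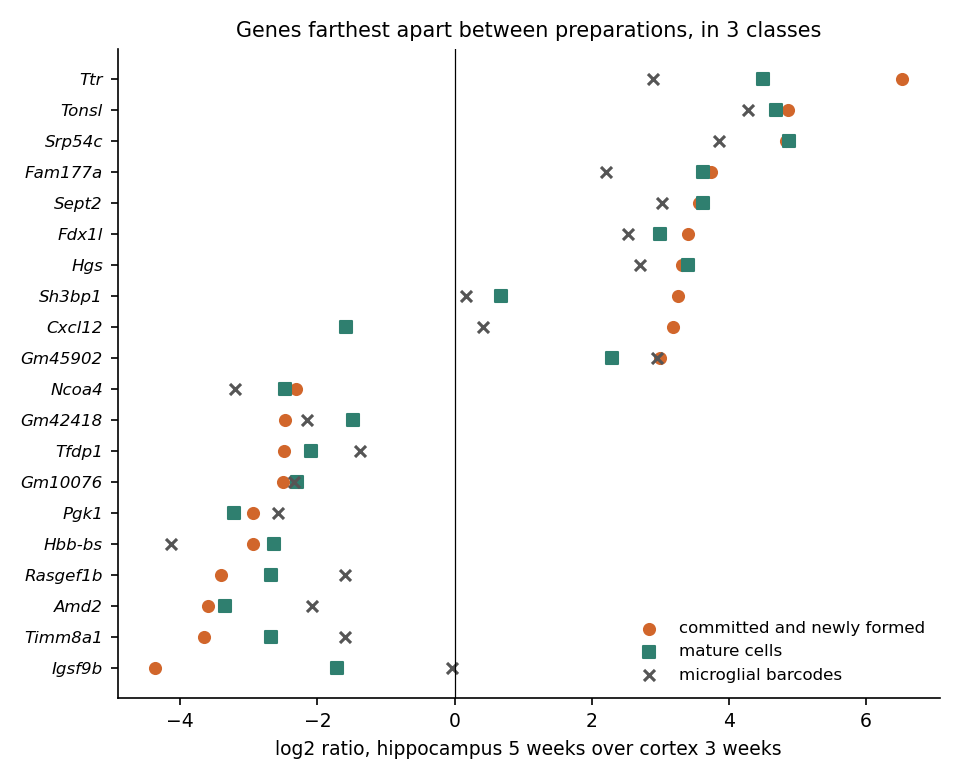
Log2 ratio of hippocampus to cortex for the 20 genes with the largest differences between the committed cells of the preparations, in committed cells, mature cells and microglial barcodes (precursors are not drawn). For *Tonsl*, *Srp54c*, *Pgk1* and *Amd2* the 3 classes moved together. In microglial barcodes the ratios of *Igsf9b*, *Sh3bp1* and *Cxcl12* were −0.04, 0.17 and 0.41. There *Igsf9b* and *Cxcl12* were below the 5 CPM added to both sides, which holds their ratios near 0.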

How the data were processed

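The authors deposited raw UMI counts per gene and barcode for each library (10x Genomics droplets), not normalized. Their methods state Cell Ranger 5.0.1 and genome mm10, whereas the matrix headers name versions 3.0.1 (cortex, preparation 1) and 3.1.0 (hippocampus, preparation 3). Genes were joined by identifier, and 1027 shared identifiers carried another symbol. Counts were summed per class and library and scaled to CPM. Intervals were conditional binomial for ratios, without the 5 CPM added, and Clopper-Pearson for shares, at 95%. A count of 0 was given a limit of 3 counts. UMIs of the 3' assay are not scaled to gene length, so levels are compared within genes only. On simulated counts for committed cells against precursors (1724 genes, 200 of them changed), 95.5% of intervals contained the simulated ratio. These counts were drawn with counting error alone, which the interval assumes. The simulation thus checks the calculation and cannot tell how the intervals do under the spread between cells. Doublets were scored with Scrublet (scanpy 1.11.5) at 0.8% per 1000 barcodes and kept. edgeR 4.0.16 gave TMM factors, and Python 3.11.15, numpy 2.4.6, scipy 1.17.1, pandas 2.3.3 and matplotlib 3.10.9 were used. Coordinates come from GENCODE release M21.

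The committed cells, the 24 gene lists and the comparisons were chosen with earlier results of these data known. Named were the genes of the rule, called list genes with the highest levels, the 12 genes highest above both neighbours, the 12 highest and 12 lowest against each neighbour, and the 10 highest and 10 lowest between preparations. Those above both neighbours also needed a UMI in at least 20% of committed cells. Other genes named were chosen after their values were seen. Some genes that these rules name are not reported here, although the counts include them. Alternatives changed the choice of cells, gene minimum, pseudocount, scaling and libraries.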

Additional observations from a re-analysis of the deposited data

Results flagged for a closer look

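For a few genes every library of committed cells differed from a neighbouring class in one direction in the cortex and in the other in the hippocampus. In each case the difference between preparations was not tested. Against mature cells *Apoe*, a lipid carrier, had a log2 ratio of 1.05 in the cortex and −2.74 in the hippocampus, and *Gm42418* one of 0.42 and −0.56. Of lipid enzymes, *Idi1*, an isoprenoid isomerase, had ratios of −0.80 and 0.66, and *Elovl6*, a fatty acid elongase, of −0.92 and 0.35. Against precursors the ceramide synthase gene *Cers5* had ratios of −1.38 and 0.20 and the integrin gene *Itgb1* of −0.78 and 0.27, with 7 cells in the cortical class. Outside the limits used, 25 hippocampal barcodes met the rule but had over 6000 genes, with a median of 49794 UMIs and *Mog* at 2095 CPM.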

How the results depend on the processing

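The 266 results on single genes kept their direction and their side of 2-fold in 5077 combinations of gene and alternative, were no longer called in 332, of which 185 had too few UMIs left to be measured, and changed sign in 5. These were *Stmn1* against precursors (−0.30) with at least 3 markers required, and, without committed cells carrying 5 or more mature genes, *Stmn1* (−0.43), *Car2* (−1.0), *Gsn* (−0.20) and *Fnbp1* (−0.24), of which *Gsn* alone still had enough UMIs. These values are the ratio nearer 0 of the preparations. With at least 3 markers the hippocampal share of the lineage was 9.23%, 508 genes were lower than mature cells, and 73.4% (cortex) and 73.1% (hippocampus) of genes lay between the neighbours. Without cells carrying 5 or more mature genes the share was 10.6% and the genes between were 78.0% and 66.6%. The hippocampal share was 12% with no gene of another type allowed, 13.6% with a mitochondrial limit of 10% and 14.4% with no upper limit on genes, and the cortical genes between were 86.1% with the 10% limit and 94.2% without called doublets. With at least 10 UMIs 435 genes were lower than precursors and 843 higher than mature cells. With at least 1 UMI 442 were higher and 1232 lower than precursors, 1041 higher than mature cells and 153 higher in the cortex. TMM scaling gave 466 and 77 against precursors and 507 lower than mature cells. Leaving out precursors with *Bmp4* or *Enpp6* gave 379 genes higher, and the hippocampal libraries alone gave 734 higher and 1523 lower than precursors and 1257 higher and 572 lower than mature cells. These and the setting without a gene limit were chosen after seeing the data.

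Leaving out each library in turn gave 161 to 259 genes higher and 47 to 136 lower than precursors, 400 to 584 higher and 264 to 356 lower than mature cells, 205 to 525 higher in the hippocampus and 81 to 150 in the cortex. The shares of the lineage were then 46.3 to 57.1% (cortex) and 12.9 to 13.2% (hippocampus), and the genes between 90.1 to 93.9% and 86.8 to 92.7%. For cortex against hippocampus, no paired analysis was possible because the replicate numbers label technical replicates of separate pools. No comparison came from a test. The classes of cells do share libraries, and within them 182 of the 252 genes higher than in precursors were higher in all 6 libraries and 68 in 5, as were 530 and 17 of the 548 higher than in mature cells. Of the genes that were lower, 58 and 68 of 127 were lower than precursors in 6 and in 5 libraries, and 312 and 9 of 322 lower than mature cells. The 7 cortical precursors, with 69832 UMIs in all, limit the cortical ratios most, since a count of 0 there allows up to 43.0 CPM.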
